A study of Mus musculus with 10 samples.

Results

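The genes described here are 9 transcription factors that pattern the dorsal telencephalon, the part of the embryonic forebrain that becomes cerebral cortex and hippocampus: Emx1, Emx2, Pax6, Lhx2, Otx1, Otx2, Nr2f1, Nr2f2 and Sp8. They were chosen by symbol, each was named alone by 1 probe set, and all 9 were measured among 19938 genes. The transgenic embryos (dtg in the sample titles, n = 5) expressed a constitutively active allele of FoxO3, a forkhead transcription factor that AKT otherwise excludes from the nucleus, driven by the CaMKIIa promoter, which the submitters call forebrain-specific. The control embryos (stg, n = 5) came from the same study, and the labels neither spell out the abbreviations nor say whether the controls carry a transgene. All embryos were at E12.5, of a mixed CD1/NMRI background, and were taken 12 days after the plug from 2 dams that are not assigned to embryos, so litter and group cannot be told apart. RNA from part of the forebrain of each embryo, cut free of most of the thalamus, was hybridised to 1 Affymetrix array, and values are log2 intensities.

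Cortical patterning is set by opposed gradients of such factors across the sheet of dividing progenitors. Lhx2 and Pax6 specify cortical progenitors, Emx2 is highest at the caudal and medial side where it opposes rostral Pax6 and Sp8, and Nr2f1 promotes caudal area identity. Otx1 and Otx2 act earlier and more broadly in the forebrain and midbrain, and Otx2 remains strong at the dorsal midline, in choroid plexus and in the diencephalon. Nr2f2 marks caudal and ventral telencephalon and parts of the thalamus and hypothalamus. Emx1 is a marker of the cortical lineage.

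Promoter windows are shown because FoxO3 and several of the factors bind short DNA motifs that can be looked up in them. RefSeq windows of GRCm38.p6, each from 250 bases before to 50 bases after an annotated start, matched 8 members with 16 windows. Otx1 had no window, and some members had several. Their GC content ran from 41.7% to 74.7%, against a median of 52.7% over all 32851 windows. The windows shown are those of the pair with the largest group differences, Otx2 and Nr2f2, the Nr2f1 window with a FOXO-type match, and Emx1, which had the most negative difference. Otx2 had several windows, and the one shown held the most motif matches, 4, against 1 or 0 in its others. Capitals mark matches on either strand to GTAAACA (the FOXO core), CAAAACA (an insulin response core), TAATCC (the core bound by OTX proteins), TAATTA (a general homeodomain core) or AGGTCA (a nuclear receptor element). Each is written 5′ to 3′ on the gene's strand.
Otx2 (chr14:48665060-48665359, minus strand): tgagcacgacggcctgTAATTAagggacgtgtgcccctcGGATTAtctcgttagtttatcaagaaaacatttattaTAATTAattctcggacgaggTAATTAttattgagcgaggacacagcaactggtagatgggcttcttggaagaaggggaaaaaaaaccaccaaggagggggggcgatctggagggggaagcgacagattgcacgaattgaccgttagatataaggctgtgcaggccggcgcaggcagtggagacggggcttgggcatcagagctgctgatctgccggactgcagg
Nr2f2 (chr7:70366697-70366996, minus strand): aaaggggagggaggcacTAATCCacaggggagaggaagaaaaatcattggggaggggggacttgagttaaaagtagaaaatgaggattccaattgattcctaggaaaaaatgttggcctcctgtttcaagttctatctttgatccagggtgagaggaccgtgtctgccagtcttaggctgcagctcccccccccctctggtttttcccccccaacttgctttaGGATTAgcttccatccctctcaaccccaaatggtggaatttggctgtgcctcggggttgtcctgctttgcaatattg
Nr2f1 (chr13:78196400-78196699, minus strand): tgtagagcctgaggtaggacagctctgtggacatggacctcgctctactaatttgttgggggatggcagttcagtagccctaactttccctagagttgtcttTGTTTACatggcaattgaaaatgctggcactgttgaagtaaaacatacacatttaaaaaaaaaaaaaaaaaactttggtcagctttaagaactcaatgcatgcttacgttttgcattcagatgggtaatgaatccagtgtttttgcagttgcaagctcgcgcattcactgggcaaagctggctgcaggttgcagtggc
Emx1 (chr6:85187681-85187980, plus strand): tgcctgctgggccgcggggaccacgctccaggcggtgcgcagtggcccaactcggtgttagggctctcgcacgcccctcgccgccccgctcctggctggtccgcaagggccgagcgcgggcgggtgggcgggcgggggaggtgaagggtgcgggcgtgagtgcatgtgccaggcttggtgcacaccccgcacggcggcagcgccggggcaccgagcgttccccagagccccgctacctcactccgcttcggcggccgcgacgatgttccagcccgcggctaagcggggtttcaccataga

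The FOXO core occurred in 1 of the 16 windows, 148 bases before the Nr2f1 start shown, and in 3.65% of all windows. The OTX core lay in 3 of the 16, those of Otx2, Nr2f2 and Sp8, against 7.06% of all windows. The Nr2f2 window held it at 233 and 27 bases before the start. The homeodomain core stood in 4 windows, of Otx2, Sp8 and Emx2, against 5.29% of all windows, and the Otx2 window shown held it at 3 places. The nuclear receptor element occurred in 1 window, of Sp8, against 16.3% of all, and the insulin response core in 0, against 6.28%. No window of Emx1, Pax6 or Lhx2 held any of the 5 motifs.

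Over the 9 factors the groups differed in both directions. Otx2, Nr2f2, Pax6, Otx1 and Nr2f1 had higher means in dtg embryos, and Emx1, Sp8, Lhx2 and Emx2 had lower means. None passed limma's test at an adjusted p of 0.05 over all genes (smallest adjusted p 0.247, for Otx2), where 0.105% of genes passed. At an unadjusted limma p of 0.05, 5 of 9 lay below it, against 7.58% of all genes. Of these, Otx2, Nr2f2 and Pax6 were higher, as were 4.1% of all genes at that level. Emx1 and Sp8 were lower, as were 3.48% of all genes. The median absolute log2 difference was 0.28 over the 9 factors and 0.059 over all genes. These sets differ in brightness, as the dimmest factor, Sp8, lay at percentile 54.1 and all genes include dimmer ones. Without genes below the 40th percentile of brightness, 4 of 9 factors had an unadjusted limma p below 0.05, against 9.54% of the genes kept.

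**Figure D1:**
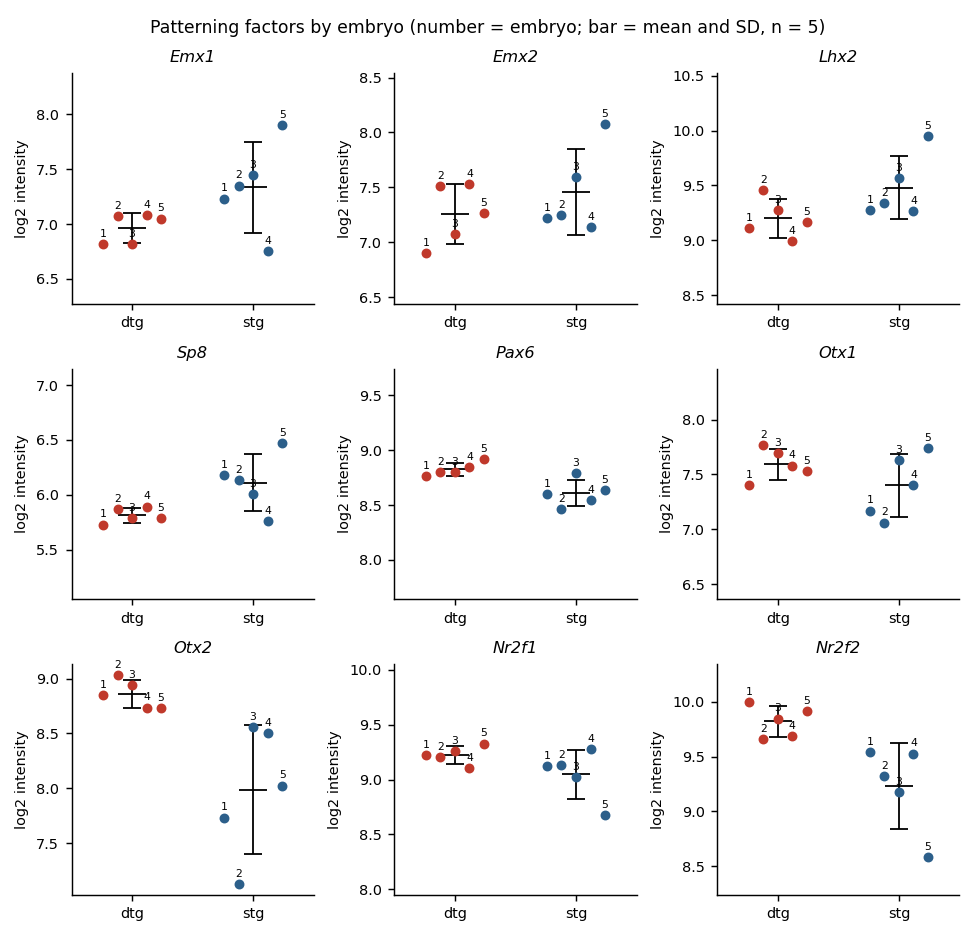
Log2 intensity (y axis) of each factor in dtg and stg embryos. Points are embryos with their numbers, bars the mean and SD (n = 5), and every panel spans the same log2 range. Otx2 and Nr2f2 are the only members whose groups do not overlap, and stg embryo 5 lies at an extreme of 6 of the 9 panels.

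Otx2, a homeodomain factor needed for forebrain and midbrain formation, showed the largest difference. It read 8.85, 9.03, 8.94, 8.74 and 8.73 in dtg embryos 1 to 5, against 7.73, 7.13, 8.55, 8.50 and 8.02 in stg embryos 1 to 5. Every dtg embryo lay above every stg embryo, by a margin of 0.18 between the nearest embryos. The log2 difference was 0.87 ± 0.23 (SE), or 1.83-fold, with a 95% interval from 0.38 to 1.36 (limma adjusted p = 0.247; exact two-sided permutation p = 0.00794, unadjusted and the smallest this design allows). The stg embryos were widely spread, with an SD of 0.59, against 0.13 in dtg embryos. When any 1 embryo was left out, the difference ranged from 0.65 (without stg embryo 2) to 1.01 (without stg embryo 3).

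Its paralogue Otx1, which acts in cortex and sense organs, had overlapping groups. It read 7.40, 7.76, 7.69, 7.58 and 7.53 in dtg embryos, against 7.17, 7.06, 7.63, 7.40 and 7.74 in stg embryos. The low stg values were those of embryos 1 and 2, which were also the 2 lowest for Otx2. The Otx1 difference was 0.19 ± 0.13 (SE; limma adjusted p = 0.790, exact permutation p = 0.230). It was 0.11 without stg embryo 2 and 0.28 without stg embryo 5.

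Nr2f2, also called COUP-TFII, was the other factor without overlap; 1.6% of all genes had none. It read 9.995, 9.66, 9.85, 9.69 and 9.91 in dtg embryos, against 9.54, 9.32, 9.18, 9.53 and 8.59 in stg embryos. All dtg values were higher than all stg values, with stg embryo 5 well below the other controls. The log2 difference was 0.59 ± 0.16 (SE), with a 95% interval from 0.24 to 0.93 (limma adjusted p = 0.297; exact permutation p = 0.00794). Without stg embryo 5 it was 0.43 ± 0.095 (SE; limma adjusted p = 0.134).

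Nr2f1, or COUP-TFI, its paralogue, overlapped between groups. Its values were 9.22, 9.20, 9.26, 9.10 and 9.33 in dtg embryos and 9.13, 9.13, 9.02, 9.28 and 8.67 in stg embryos. Apart from stg embryo 5, the embryos lay close together. The difference was 0.18 ± 0.098 (SE; limma adjusted p = 0.742, exact permutation p = 0.111), and 0.083 without stg embryo 5.

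Pax6, a paired-domain and homeodomain factor of cortical progenitors, showed a small difference, with an SD of 0.058 in dtg and 0.12 in stg embryos. It read 8.77, 8.80, 8.80, 8.85 and 8.92 in dtg embryos, against 8.60, 8.47, 8.79, 8.54 and 8.63 in stg embryos. Of the dtg embryos, 4 lay above all controls, and dtg embryo 1 lay just below stg embryo 3 and above the other controls. The difference was 0.22 ± 0.064 (SE), or 1.16-fold, with an interval from 0.080 to 0.36 (limma adjusted p = 0.380; exact permutation p = 0.0159). It ranged from 0.18 to 0.27 when any 1 embryo was left out.

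Emx1, a homeodomain factor of the cortical lineage, had the lowest dtg level relative to controls. It read 6.82, 7.07, 6.82, 7.08 and 7.05 in dtg embryos, against 7.23, 7.35, 7.45, 6.75 and 7.90 in stg embryos. All dtg embryos lay below 4 of the 5 controls and above stg embryo 4. The difference was -0.37 ± 0.17 (SE; limma adjusted p = 0.648, exact permutation p = 0.0952). It was -0.51 without stg embryo 4 and -0.23 without stg embryo 5.

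Sp8, a zinc finger factor of the rostral signalling centre and dorsal telencephalon, also had a lower dtg mean. It read 5.73, 5.87, 5.78, 5.89 and 5.78 in dtg embryos, against 6.18, 6.14, 6.01, 5.76 and 6.47 in stg embryos. Here stg embryo 4 was the only control within the dtg range. The difference was -0.30 ± 0.11 (SE), with an interval from -0.53 to -0.067 (limma adjusted p = 0.523; exact permutation p = 0.0397). Without stg embryo 4 the groups of 4 members did not overlap, namely Emx1, Sp8, Otx2 and Nr2f2, where 3.47% of all genes had no overlap.

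Lhx2, a LIM-homeodomain factor that selects cortical over hem fate, read 9.11, 9.46, 9.28, 8.99 and 9.17 in dtg embryos, against 9.28, 9.34, 9.57, 9.27 and 9.95 in stg embryos. Of the dtg embryos, 3 lay below all controls. The Lhx2 difference was -0.28 ± 0.13 (SE; limma adjusted p = 0.671, exact permutation p = 0.111), and -0.16 without stg embryo 5. Emx2, the caudal and medial determinant, read 6.90, 7.51, 7.07, 7.53 and 7.26 in dtg embryos, against 7.22, 7.25, 7.59, 7.13 and 8.08 in stg embryos. Its groups were mixed, and its difference of -0.20 ± 0.18 (SE; limma adjusted p = 0.860, exact permutation p = 0.389) was -0.044 without stg embryo 5 and -0.11 without dtg embryo 1. For all 9 factors the SD was smaller among dtg than among stg embryos, as it was for 53.3% of all genes.

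**Figure D2:**
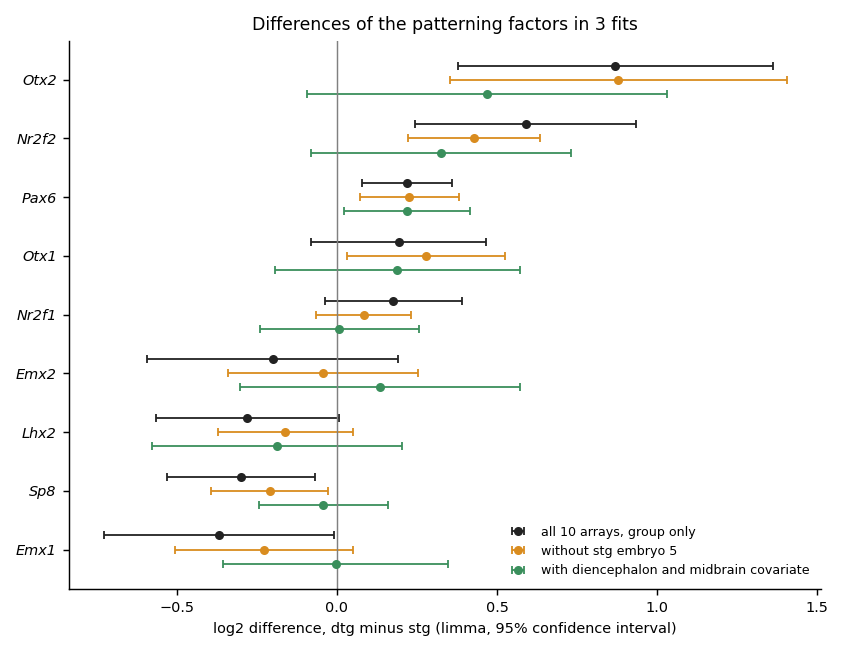
Log2 difference, dtg minus stg (x axis), with its 95% confidence interval for each factor in 3 limma fits. Otx2 at 0.87 and Nr2f2 at 0.59 lie farthest right with all arrays, Emx1 at -0.37 farthest left, and Pax6 stays at 0.22 to 0.23 in all 3 fits.

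Related and opposing factors were then set against each other on the same array, in 4 pairs, to ask whether they differed between groups by unequal amounts. Otx1 minus Otx2 differed by -0.68 between dtg and stg embryos, with no overlap (exact permutation p = 0.00794, adjusted p = 0.0159 over the 4 pairs). Nr2f1 minus Nr2f2 differed by -0.41, also with no overlap (exact permutation p = 0.00794, adjusted p = 0.0159). Otx2 and Nr2f2 were higher relative to their paralogues in all 5 dtg embryos than in any stg embryo. Emx1 minus Emx2 differed by -0.17 (exact permutation p = 0.151, adjusted p = 0.151). Pax6 minus Emx2 differed by 0.42 (exact permutation p = 0.0556, adjusted p = 0.0741). These last 2 pairs did not pass over the 4. The pairs were drawn from members chosen with earlier results of these data known, so the adjustment covers only these 4. Otx2 and Nr2f2 alone already separated the groups, and neither passed over all genes. The first 2 results therefore restate those values, and the share of other gene pairs without overlap was not computed.

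**Figure D3:**
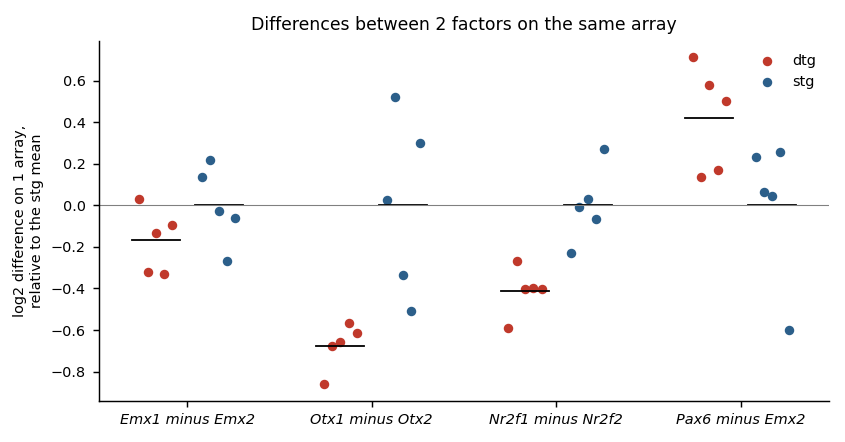
Log2 difference between 2 factors on the same array, shifted so that the stg mean is 0 (y axis), for 4 pairs, with dtg embryos left of stg embryos. Points are embryos and bars are group means. The dtg points lie below all stg points for Otx1 minus Otx2 and for Nr2f1 minus Nr2f2.

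Levels of genes that mark forebrain regions also varied between embryos. In bulk tissue, fewer cells of a type and less RNA per cell cannot be told apart. The 15 thalamus and pretectum genes had a mean log2 level of 6.23 to 7.17 in dtg embryos, against 5.65 to 6.65 in stg embryos, and 14 of the 15 had a higher dtg mean. Of these, 8 (53.3%) had an unadjusted limma p below 0.05, all higher, against 7.58% of all genes, and 0 passed over all genes. Those with the smallest p were Foxp2 at 0.74 (limma adjusted p = 0.0846), Olig3, a factor of the thalamic progenitor zone, at 2.26 (adjusted p = 0.185) and Dbx1 at 1.11 (adjusted p = 0.250). The 12 midbrain genes lay at 4.96 to 5.54 in dtg embryos and 4.75 to 5.52 in stg embryos. The 11 hypothalamus genes lay at 5.74 to 6.08 in dtg embryos and 5.24 to 5.95 in stg embryos.

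The 15 ventral telencephalon genes averaged 6.17 to 6.62 in dtg embryos, against 7.18, 7.17, 5.83, 7.04 and 5.08 in stg embryos 1 to 5. Thus stg embryos 1, 2 and 4 lay above every dtg embryo and stg embryos 3 and 5 below every dtg embryo. Of these genes 6 had a higher and 9 a lower dtg mean, and 0 passed over all genes. Lhx8 alone had an unadjusted limma p below 0.05, with a lower dtg mean. That is 6.67% of the list, against 7.58% of all genes.

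Among stg embryos the thalamus and pretectum mean was 5.69, 5.69, 6.54, 6.65 and 5.65 for embryos 1 to 5. Embryos 3 and 4, the 2 with the higher means, were also the stg embryos with the highest Otx2. In a fit with the mean of the thalamus, hypothalamus and midbrain genes as a covariate, the Otx2 difference was 0.47 ± 0.26 (SE) and that of Nr2f2 0.32 ± 0.18. That of Emx1 was -0.0034 ± 0.16 and that of Sp8 -0.042 ± 0.092. Pax6 was at 0.22 ± 0.090 and was then the 1 member of 9 with an unadjusted p below 0.05, where 3.89% of all genes lay below it. All 9 factors had a limma adjusted p of 0.9996 in this fit, and the part of regional make-up in the differences was not tested beyond this fit.

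**Figure D4:**
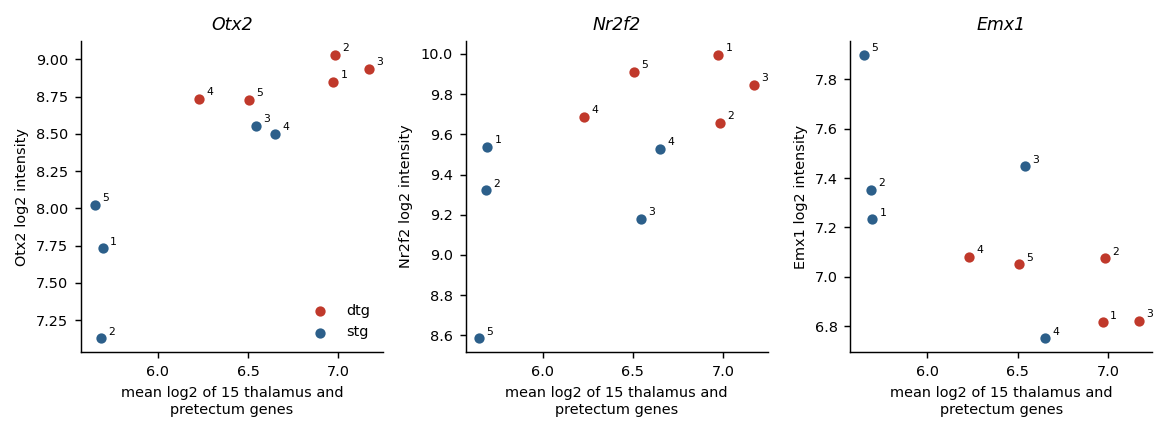
Log2 intensity (y axes) of Otx2, Nr2f2 and Emx1 against the mean log2 of 15 thalamus and pretectum genes (x axes), with embryos numbered. The stg embryos 1, 2 and 5, with thalamus means of 5.65 to 5.69, hold the 3 lowest Otx2 values, and dtg embryos, with means of 6.23 to 7.17, the 5 highest. The stg embryos 3 and 4 have means of 6.54 and 6.65, within the dtg range, and Otx2 below all dtg embryos.

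Arrays correlated at 0.980 or more with each other across genes, and Foxo3 itself read 0.34 ± 0.085 (SE; limma adjusted p = 0.218) on probes that need not cover the transgene. Embryo 5 of the stg group stood apart in several of the patterning genes. It had the highest value of all 10 embryos for Emx1, Emx2, Lhx2 and Sp8 and the lowest for Nr2f1 and Nr2f2. Its mean over 15 neuronal genes was 7.34, against 8.31 to 8.90 in dtg embryos and 8.34 to 8.63 in the other stg embryos. With all embryos, 14 of these 15 genes had a higher dtg mean, as for the thalamus and pretectum genes. Their median log2 difference was 0.36, and 0 had an unadjusted limma p below 0.05. The ventral telencephalon mean of stg embryo 5, at 5.08, was the lowest of all 10 embryos. Its 10 mesenchyme genes averaged 8.19, against 6.42 to 7.11 in dtg embryos and 6.15 to 7.04 in the other stg embryos. With the neuronal mean as a covariate, Nr2f2 was at 0.37 ± 0.070 (SE) and passed over all genes (limma adjusted p = 0.0410), and Emx2 read 0.048 ± 0.071. In that fit 94 genes passed, against 21 with group only. Emx1 was then at -0.17, Lhx2 at -0.14, Sp8 at -0.19 and Nr2f1 at 0.059. Otx1 was at 0.31, Otx2 at 0.90 and Pax6 at 0.24. The part of this embryo's composition in the differences was not tested beyond this fit and the fit without it.

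Markers of nearby tissue that expresses some of the 9 factors overlapped between groups in their mean level. The 7 choroid plexus genes, a tissue with strong Otx2, averaged 5.89 to 6.39 in dtg embryos and 5.28 to 6.67 in stg embryos, with 0 of 7 at an unadjusted limma p below 0.05. The transport protein gene Ttr read 0.65 ± 0.62 (SE; limma adjusted p = 0.867). Its level was 6.48 in stg embryo 2, against 9.20 to 10.67 in the other stg embryos. That embryo also had the lowest choroid plexus mean, at 5.28, and the lowest Otx2, at 7.13. Embryo 5 of the stg group had the highest Ttr, at 10.67, with Otx2 at 8.02, below all dtg embryos. The part of choroid plexus content in the Otx2 difference was not tested. The 8 eye genes averaged 4.18 to 4.32 in dtg embryos and 4.14 to 4.39 in stg embryos, and 4 of the 8 lay below the lower quartile of all genes. The 8 olfactory epithelium genes averaged 4.98 to 5.19 in dtg embryos and 5.01 to 5.22 in stg embryos. Hindbrain genes were dim in every embryo, with 8 genes averaging 4.38 to 4.53 in dtg embryos and 4.41 to 4.56 in stg embryos, against a median of 5.69 over all genes. The 12 radial glia genes, Pax6 among them, averaged 8.93 to 9.07 in dtg embryos and 9.05 to 9.10 in stg embryos, and 5 were higher and 7 lower. Of them, 3 (25%) had an unadjusted limma p below 0.05, against 7.58% of all genes, with Pax6 higher and 2 lower. Id4, an inhibitor of differentiation, read -0.33 ± 0.075 (SE; limma adjusted p = 0.196) with no overlap, as for 1.6% of all genes. Ddah1 read -0.47 ± 0.14 (SE; limma adjusted p = 0.388). The 7 endothelial genes averaged 6.36 to 6.69 in dtg embryos and 6.30 to 6.89 in stg embryos, the 6 red cell genes 7.12 to 8.12 in dtg and 7.14 to 8.56 in stg embryos, and the 6 microglial genes 5.05 to 5.20 in dtg and 4.84 to 5.13 in stg embryos.

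Genes that act with the 9 factors were mixed as well. Of 21 measured further regulators of the dorsal telencephalon and forebrain, 11 were higher and 10 lower, with a median log2 difference of 0.032, against -0.0038 over all genes. None passed over all genes, and 4 (19%) had an unadjusted limma p below 0.05, against 7.58% of all genes. Of the 4, 3 were higher. The zinc finger genes Zic1, at 0.37 ± 0.13, and Zic2, at 0.43 ± 0.15 (SE), both active at the dorsal midline, were among these 3. Bcl11a, a factor of cortical neurons, read -0.20 ± 0.061 (SE; limma adjusted p = 0.402) with no overlap between groups.

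Of 9 genes known to depend on Pax6 in the cortex, 5 were higher and 4 lower, with a median of 0.0066. At an unadjusted limma p of 0.05, 4 were higher and 1 lower, or 55.6% of the 9, against 7.58% of all genes. The secreted WNT modulator gene Sfrp2 passed over all genes and rose by 0.59 ± 0.071 (SE; limma adjusted p = 0.00759). It read 8.32, 8.52, 8.22, 8.48 and 8.49 in dtg embryos, against 7.82, 7.77, 7.87, 7.91 and 7.70 in stg embryos. The Sfrp2 SD was 0.13 in dtg embryos and 0.081 in stg embryos. Eomes, a factor of intermediate progenitors, read -0.58 ± 0.14 (SE; limma adjusted p = 0.196), and Dbx1, which marks the pallial border and thalamic progenitors, is given above.

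Of 13 FGF signals, receptors and readouts, 10 were higher and 3 lower, with a median of 0.097. None passed, and 2 (15.4%) had an unadjusted limma p below 0.05, both higher, against 7.58% of all genes. These were the FGF family gene Fgf15, at 0.70 ± 0.22 (SE), and the FGF feedback inhibitor Spry2, at 0.41 ± 0.14 (SE). Of 13 measured WNT and BMP genes of the cortical hem, the caudal and medial signalling centre, 5 were higher and 8 lower, with a median of -0.037. Of them, 2 (15.4%) had an unadjusted limma p below 0.05, 1 higher and 1 lower, against 7.58% of all genes. The hem ligand Wnt2b read -0.27 ± 0.094 (SE) with no overlap, Wnt7b 0.22 ± 0.096, and neither passed (limma adjusted p = 0.510 and 0.629). Among 13 relatives of the 9 factors, 4 (30.8%) had an unadjusted limma p below 0.05, against 7.58% of all genes, 3 higher and 1 lower. Lhx5 read 0.98 ± 0.19 (SE; limma adjusted p = 0.0878) with no overlap, Lhx9 0.79 and Lhx1 0.87. Lhx9 is also among the thalamus and pretectum genes above. The only relative with an unadjusted p below 0.05 and a lower mean was the ventral factor Lhx8, at -0.85 ± 0.38 (SE; limma adjusted p = 0.642).

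The genes whose levels followed each factor most closely over the 10 arrays were found among those at or above the median brightness. The measure was Pearson's r across embryos, which share group and make-up, and it is given as a description. Otx2 was closest to Crybg3 (r = 0.937), Btg1 (0.917) and Clybl (0.914). Nr2f2 was closest to Slc25a27 (0.983), Yipf2 (0.974) and Tmem163 (0.973). Pax6 was closest to Map3k20 (0.915), Phka2 (0.915) and Serinc5 (0.902). Emx1 was closest to Tkt (0.969), Etl4 (0.963) and Tex10 (0.953). Sp8 was closest to Dhx33 (0.980), the microRNA gene Mir9-1 (0.961) and Ap4m1 (0.956). Lhx2 was closest to Tenm4 (0.949), Emx2 to Cad (0.987), Otx1 to Rassf4 (0.967) and Nr2f1 to Carhsp1 (0.965).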

How the data were processed

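One Affymetrix array per embryo was available for 5 dtg and 5 stg embryos, grouped by sample title. The deposited table holds log2 intensities of 35556 probe sets that the authors made with the Affymetrix Expression Console program, as the submitters' processing notes name it; its version, algorithm and settings are not given in the sources used here. Array medians ran from 5.36 to 5.39, and no normalization was added. Whether the authors normalized between arrays is not stated in these sources. The table gives no background or detection values, so a dim signal has no known floor, and the number of arrays limits the precision.

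By the platform's gene names, 21789 probe sets had 1 gene, 1621 had several and 12146 had none, and the symbols equalled those of RefSeq for GRCm38.p6. Each of 19938 genes was represented by its probe set with the highest mean. The dtg and stg groups were tested by limma 3.58.1 under R 4.3.3 (group only, two-sided, Benjamini-Hochberg over all genes) and, for single values, with exact permutation over all assignments of 5 and 5 embryos. The procedure was tested on simulated data with known changes.

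The members and gene lists were chosen with earlier results of these data known. Genes named were the 9 members, up to 3 genes per list with the smallest p, and up to 3 genes most like each member. Each array is a separate embryo, but littermates share a dam that the labels do not give, so p-values measure the spread between these embryos. Alternatives were a fit with replicate number as a block, fits without each embryo in turn, limma's trend, robust and array weight options, quantile or median scaling, a filter at the 40th percentile of brightness, averaged probe sets, and covariates for diencephalon and midbrain genes, neuronal genes and Xist. Some listed genes were not analysed here.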

Additional observations from a re-analysis of the deposited data

Results flagged for a closer look

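In groups of 5 embryos, 56 sets of values were examined for 1 embryo far from the rest, and chance alone marks about 5% of such sets. None of the 18 sets of the 9 factors was marked. Embryo 5 of the stg group lay far below the other controls in the mean of 15 neuronal genes, at 7.34, and in the mean of 13 relatives of the 9 factors, at 5.20. Embryo 2 of the stg group had the highest hindbrain mean, at 4.56, and embryo 4 of the stg group the lowest eye mean, at 4.14; both lists are dim.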

How the results depend on the processing

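Across 21 alternatives the 9 factors gave 189 values. Of these, 186 kept their direction and did not pass over all genes, 2 changed direction and 1 came to pass. Emx2 turned to 0.13 with the diencephalon and midbrain covariate and to 0.048 with the neuronal covariate, and Nr2f2 passed with the neuronal covariate at 0.37. Members with an unadjusted limma p below 0.05 numbered 1 with the diencephalon and midbrain covariate, against 3.89% of all genes. They numbered 4 to 7 when any 1 embryo was left out, against 5.72% to 9.53% of all genes. Members without overlap numbered 2 to 4 when any 1 embryo was left out, against 2.14% to 3.65% of all genes. The 4 were found without stg embryo 4, where 3.47% of all genes had no overlap. Over all genes, 21 passed with all arrays, 2 with the replicate block, 39 with array weights, 5 with the diencephalon and midbrain covariate, 94 with the neuronal covariate and 55 at an adjusted p of 0.1. Leaving out 1 embryo gave 7 (without dtg embryo 1) to 58 (without stg embryo 4). The replicate numbers are not said to pair embryos, and deviations of same-numbered embryos from their group means correlated at -0.246 to 0.238, with 0 of 5 dtg embryos closest to the stg embryo of their number. With the replicate block, where exact sign changes cannot give a p below 0.0625, the differences for Otx1 minus Otx2 (-0.68) and Nr2f1 minus Nr2f2 (-0.41) no longer passed (adjusted p = 0.0833 each). Leaving out 1 embryo, these ran from -0.80 to -0.55 and from -0.47 to -0.34, with adjusted p up to 0.0476; Emx1 minus Emx2 ran from -0.23 to -0.11 and Pax6 minus Emx2 from 0.27 to 0.49. The cause of these shifts was not tested. With 5 embryos a group, the number of arrays limits what the comparison can resolve.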
